A study of Caenorhabditis elegans with 2 samples.

Results

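One-sided promoter peaks are GMEB-2-GFP binding peaks whose summit lies near the 5′ end of protein-coding genes on one DNA strand only. They numbered 1307 among the 5000 strongest peaks of a joint list of 30000 peaks, made from both replicates together. Members were selected on the authors' signal value in that list. Summits within 200 bp of a tRNA or snoRNA gene were set aside. The remaining summits were kept if they fell in the window of an annotated 5′ end, reaching 1000 bp upstream and 500 bp downstream, and if all such genes shared a strand. The other strong peaks were 349 divergent peaks, with genes on both strands in reach, 2979 peaks outside promoter windows and 365 peaks at tRNA or snoRNA genes. Since signal chose the members, their signals, ranks and agreement between lists are given as a description, with no test.

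The assay was chromatin immunoprecipitation with sequencing (ChIP-seq) of whole late embryos of Caenorhabditis elegans. Embryos of both sexes of strain OP622, genotype unc-119(tm4063) III; wgIs622, were pooled and taken 5 hours after synchronization by egg bleaching. The insertion wgIs622 expresses GMEB-2 with a GFP-FLAG tag at its C terminus, and an antibody against GFP was used on sonicated chromatin. The study had 2 biological replicates of this 1 group, and both came from this 1 transgenic line, so binding of untagged GMEB-2 was not measured. Whole embryos mix all tissues, and a peak cannot be placed in a cell type. Depth is unknown because the lists give no read numbers, and each list has its own signal scale.

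GMEB-2 belongs to a family named for the vertebrate glucocorticoid modulatory element binding proteins. These proteins bind DNA through a SAND domain, and the vertebrate members recognise sites built around an ACGT core. A gene's promoter lies directly upstream of its transcription start, and a peak that faces a lone promoter can be tied to its gene more readily than a peak between divergent genes. Many worm transcripts are trans-spliced to a leader, which removes their first bases, so an annotated 5′ end can lie downstream of the true start.

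The following 101-bp windows are centred on the summits of strong members and show what the sequence under such a peak looked like. They come from the RefSeq genome of WBcel235, which is the assembly ce11, and are written 5′ to 3′ on the target gene's strand. Capitals mark the words ACGCGC and GCGCAC and CGCAAG (called GC-rich words here), the palindromes GCGCGC and TACGTA, and the words GTTCGANNC and GTTCAANNC, each searched on both strands. TACGTA holds the ACGT core of the vertebrate site at its centre. The last pair of words spell the B box, the internal promoter element of tRNA genes.
K12H4.5 (chrIII:8043915-8044015, plus strand): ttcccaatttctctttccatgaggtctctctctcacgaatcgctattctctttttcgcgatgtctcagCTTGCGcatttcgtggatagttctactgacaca
T13C5.6 (chrX:6207809-6207909, minus strand): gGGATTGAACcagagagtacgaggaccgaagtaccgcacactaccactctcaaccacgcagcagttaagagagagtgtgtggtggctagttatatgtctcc
rpl-3 (chrIII:3867528-3867628, plus strand): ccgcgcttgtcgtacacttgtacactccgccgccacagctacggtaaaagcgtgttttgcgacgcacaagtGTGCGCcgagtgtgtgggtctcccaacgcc
M01F1.9 (chrIII:3499975-3500075, minus strand): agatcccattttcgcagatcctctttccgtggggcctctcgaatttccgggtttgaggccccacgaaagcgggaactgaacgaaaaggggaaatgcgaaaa
tba-7 (chrIII:11371416-11371516, minus strand): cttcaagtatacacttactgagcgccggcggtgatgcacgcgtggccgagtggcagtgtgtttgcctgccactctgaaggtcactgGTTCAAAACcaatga
C46F11.4 (chrIII:3664392-3664492, minus strand): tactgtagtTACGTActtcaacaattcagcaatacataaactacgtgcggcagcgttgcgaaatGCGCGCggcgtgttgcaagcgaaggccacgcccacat
F39G3.3 (chrV:4731528-4731628, plus strand): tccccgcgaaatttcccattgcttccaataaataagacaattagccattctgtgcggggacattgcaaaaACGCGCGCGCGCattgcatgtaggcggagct
dhs-8 (chrII:14496985-14497085, plus strand): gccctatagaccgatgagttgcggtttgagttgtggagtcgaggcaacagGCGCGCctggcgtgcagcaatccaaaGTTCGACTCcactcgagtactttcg
The windows differ in kind. K12H4.5, rpl-3 and F39G3.3 have a GC-rich word within 50 bp of the summit, T13C5.6, tba-7 and dhs-8 have a B box word, and M01F1.9 has none of these words. C46F11.4 has TACGTA and GCGCGC.

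Signals of the members ran from 50.1 to 716 in the joint list, with a median of 60.3. K12H4.5 had the strongest, with a joint signal of 716 at rank 6 among all peaks, and its summit was at -522 bp from the gene's 5′ end (negative is upstream). Its signal was 320 in replicate 1, where it ranked 3, and 397 in replicate 2, where it ranked 7. The peak upstream of T13C5.6 had signals of 212 and 276 in replicates 1 and 2, at ranks 12 and 23. Its summit also lay within 200 bp of the noncoding RNA gene C14F11.14. These peaks were near the top of both replicates' lists, which were called separately.

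The 25 strongest members included genes of protein synthesis and of protein handling. The peak at -276 bp from rpl-3, which encodes a protein of the large ribosomal subunit, had signals of 192 and 240 in replicates 1 and 2. A second large-subunit gene, rpl-35, had 61.5 and 156, and eif-3.C, a subunit of a translation initiation factor, had 115 and 126. The peak of rpl-35 ranked 263 in replicate 1 and 94 in replicate 2, the widest gap in rank among the 25. Peaks also lay at -149 bp from cdc-48.1, an ATPase that extracts ubiquitinated proteins, and at -210 bp from sec-61.G, a subunit of the channel into the endoplasmic reticulum. Others lay at -139 bp from ddp-1, a small chaperone of mitochondrial import, and at -168 bp from npp-8, a nuclear pore protein. Signals of these 4 peaks lay between 77.7 and 95.5 in replicate 1 and between 110 and 146 in replicate 2. Further members of this group lay at ftt-2, a 14-3-3 protein, spat-3, a RING finger protein related to Polycomb group proteins, vig-1, a component of the RNA interference machinery, and sms-3, a sphingomyelin synthase. Every one of the 25 was within the top 500 of both replicates, with worst ranks of 263 and 200. They included 10 on chromosome III, and 23 had their summit upstream of the gene. The exceptions were K05C4.2 and the alpha-tubulin gene tba-7, whose summits lay 343 and 322 bp into the gene, in an intron. The summit assigned to the lectin gene clec-53 lay in an intron of uba-5, and that assigned to M01F1.9 in an intron of M01F1.8. In these cases the assigned target was not the gene that holds the peak. Uniqueness, the share of 32-base words that occur at no other place in the genome, was 57.4% at sto-4, a stomatin gene, 63.2% at spat-3 and at least 94.0% at the other 23.

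**Figure D1:**
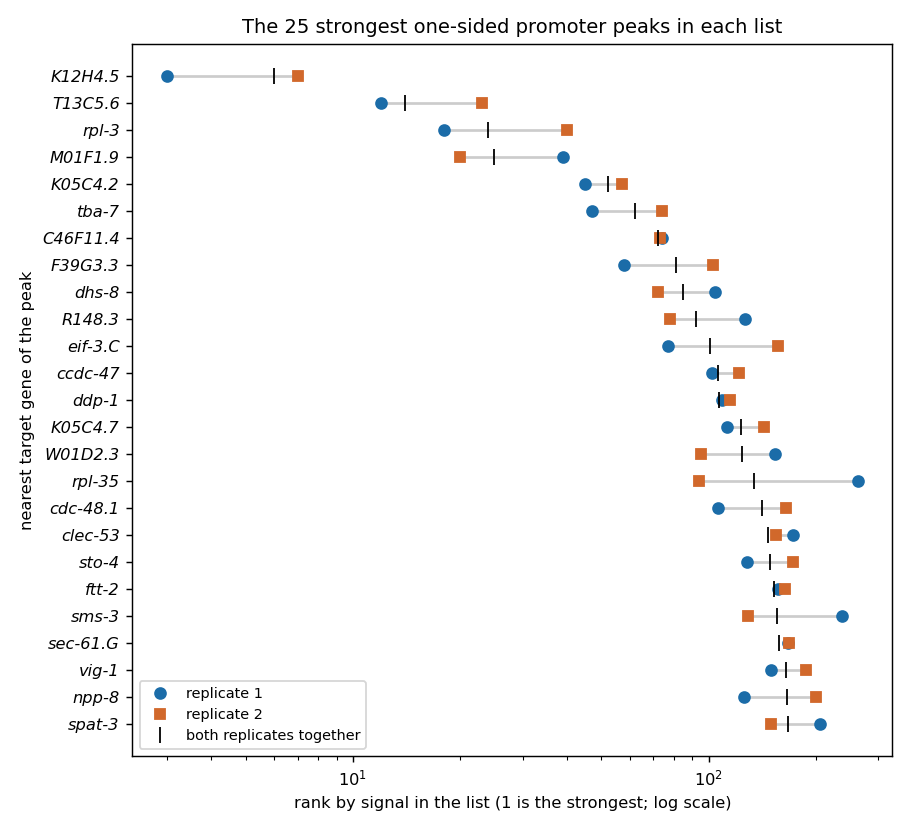
Rank by signal (horizontal axis, log scale, 1 is the strongest) of the 25 strongest one-sided promoter peaks, from the strongest at the top. Circles are replicate 1, squares replicate 2 and bars the joint list; all points lie between ranks 3 and 263.

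Agreement between the replicates was greater for stronger peaks. Joint signal is itself made from both replicates, so this is a description. The authors' list thresholded by irreproducible discovery rate (IDR), a measure of rank agreement between replicates, held 634 peaks, which were the 634 strongest of the joint list. It held 159 of the 1307 members (12.2%), and 12.7% of all 5000 strongest peaks. It held 28.9% of the divergent peaks and 4.57% of those outside promoters. A summit among the 5000 strongest of both replicates' own lists lay within 200 bp of 399 members (30.5%, 95% exact Clopper-Pearson interval 28.0% to 33.1%), against 30.6% of all 5000 strongest peaks. That share was 48.4% of the divergent peaks and 22.5% of those outside promoters. As a class, the members therefore lay between divergent peaks and peaks outside promoters in both counts. The shares over all 5000 include the 365 peaks at tRNA or snoRNA genes, where they were 65.2% and 80.0%. A class that the rule removes from the members thus raised them, so the members' closeness to these shares depends on it. The intervals cover counting error only and treat neighbouring peaks as independent.

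Members made up 25.1% of all peaks at joint ranks 1 to 634, 30.1% at ranks 635 to 1000, 27% at ranks 1001 to 2500 and 25.3% at ranks 2501 to 5000. Over the same ranks the divergent peaks made up 15.9%, 12.3%, 5.60% and 4.76%, so the share of members varied less with rank than theirs. Of the members themselves, 95.0% of those at joint ranks 1 to 634 were among the strongest 5000 of both replicates. The share was 70.0% at ranks 635 to 1000, 35.3% at ranks 1001 to 2500 and 4.42% at ranks 2501 to 5000. Another 454 members were among the strongest 5000 of replicate 2 only, 267 of replicate 1 only, and 187 of neither. In the full lists of 30000 peaks, 1167 members had a summit in replicate 1, 1279 in replicate 2 and 1139 in both. Where both replicates had a summit, the distance between their summits had a median of 29.0 bp in members of the IDR list and 56.0 bp at ranks 2501 to 5000. Over all members it was 46 bp, against 30 bp for divergent peaks and 51.0 bp for peaks outside promoters. Members of the IDR list had median signals of 49.4 in replicate 1 and 73.6 in replicate 2, each on its own scale, and median ranks of 403 and 397. Members below it had median ranks of 4835 and 3612.

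**Figure D2:**
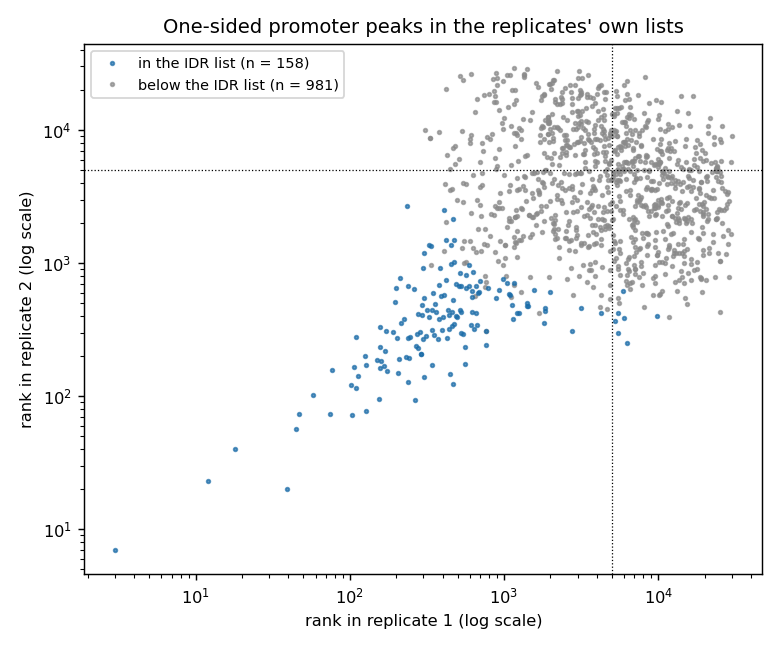
Rank of each member in replicate 1 (horizontal) and replicate 2 (vertical), both on log scales, for the 1139 members with a summit in both full lists. Blue points are the 158 members in the IDR list and grey points the 981 below it, and dotted lines mark rank 5000; joint signal chose the points, so the empty upper right and the slope of the grey cloud are shaped by that choice.

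The limit at rank 5000 fell in a dense part of the signal range. The last members inside were at lin-40 (rank 4984), a chromatin remodelling factor, gcy-18 (4999), a receptor guanylyl cyclase of thermosensory neurons, and Y48A5A.1 (5000). The first peaks past it that would have met the other steps were at elt-6 (5006), a GATA factor, Y75B8A.8 (5013) and tsp-12 (5014), a tetraspanin. Joint signal was 50.1 for all 6. None of the 6 was among the strongest 5000 of both replicates, and the peaks at lin-40 and tsp-12 had no summit in replicate 1.

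Summits lay mostly upstream of their gene. The median position was -223 bp from the 5′ end of the nearest target gene, with quartiles at -534 and -7.50 bp. Of the members, 985 (75.4%) were upstream, where 66.7% of the window itself lies, and 637 (48.7%) were within 500 bp upstream, which is 33.3% of the window. The fullest 100-bp bin was from -200 to -100 bp, with 172 members. Positions taken from each replicate's own summits had medians of -231 bp in replicate 1 and -226 bp in replicate 2.

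Position varied with strength. Of the members in the IDR list, 92.5% were upstream and 42 of 159 (26.4%) lay from -200 to -100 bp. Upstream shares were 78.2% at ranks 635 to 1000, 75.6% at ranks 1001 to 2500 and 70.5% at ranks 2501 to 5000. The weakest of these groups was thus close to the share of the window that is upstream. The share within 500 bp upstream was 67.9% at ranks 1 to 634, 53.6% at ranks 635 to 1000, 53.3% at ranks 1001 to 2500 and 40.1% at ranks 2501 to 5000.

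**Figure D3:**
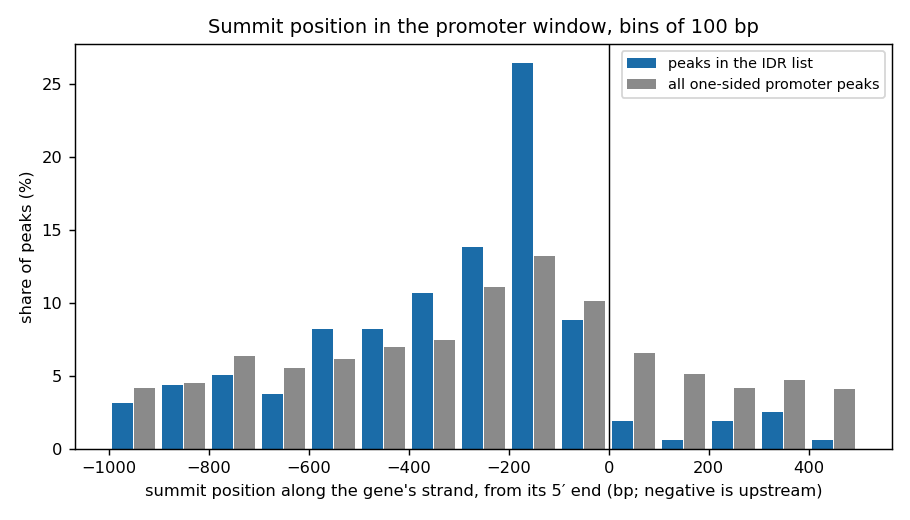
Share of peaks (vertical axis, percent) by summit position along the gene's strand in bins of 100 bp, with negative values upstream of the 5′ end. Blue bars are the 159 members in the IDR list and grey bars all 1307 members; the blue bar from -200 to -100 bp reaches 26.4% and the grey bar 13.2%.

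By annotation, 835 summits (63.9%) lay outside protein-coding gene bodies. Introns held 202, of which 122 were in the target gene and 80 in another gene. Coding exons held 178 (13.6%), 5′ UTRs 60, 3′ UTRs 31 and an exon of another kind 1. In the IDR list, 139 of 159 members (87.4%) were outside gene bodies and 2 (1.26%) in coding exons. Summits in coding exons were thus nearly all weaker peaks. Mean GC content was 44.7% in those at coding exons and 43.0% in those outside gene bodies, while a GC-rich word was present in 8.43% of the coding exon windows and 31.3% of the windows outside gene bodies.

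The members belonged to 1286 genes, which is 6.44% of the 19973 protein-coding genes. A lone target gene was found for 1265 members, 41 had 2 and 1 had 3. Target genes lay on both strands about equally, with 646 members on the plus strand and 661 on the minus strand. The nearest gene upstream of the target ran in the same direction for 63.8% of targets, against 54.6% of all genes. The median gap to the nearest upstream gene of either direction was 1768 bp against 1156 bp. It was 830 bp against 936 bp where that gene ran in the same direction, and 3531 bp against 1550 bp where it ran opposite. The longer gap was thus found only with opposite neighbours. The choice of one-sided windows removes genes with a close divergent neighbour, so the share and the longer gap follow at least in part from that choice.

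Members were found on all 6 chromosomes. Chromosome X held 218 members (16.7%), against 3.44% of the divergent peaks and 13.7% of protein-coding genes. Chromosome III held 234 members (17.9%) and 38 of the 159 in the IDR list (23.9%), against 13.2% of genes. Chromosome V held 202 members (15.5%), against 25% of genes. Whether these shares differ beyond the spread between samples was not tested.

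Genes of noncoding RNAs other than tRNAs and snoRNAs were near some members. A summit lay within 200 bp of an annotated ncRNA gene for 139 members (10.6%), of a snRNA gene for 6 and of a miRNA gene for 2. Of the 349 divergent peaks, 39 lay near an ncRNA gene, 0 near a snRNA gene and 3 near a miRNA gene. The share over all strong peaks was not counted, so these counts do not set the members apart. The strongest with a snRNA gene was assigned to egg-5, an egg activation factor, and its summit lay inside sls-2.4, a gene for the SL2 spliced leader, which is trans-spliced to downstream genes of operons. Its signals were 47 and 140 in replicates 1 and 2, at ranks 465 and 124. The peak assigned to H41C03.3 lay 31 bp from sls-2.1, with signals of 59.8 and 86.4. The peak assigned to cox-6A lay 29 bp from the snRNA gene F54D8.7, with 35 and 74.7. For such peaks the protein-coding gene and the RNA gene cannot be told apart as the bound unit. The remaining named cases, T11F9.15 near snr-4 and sup-39 near eif-2Bgamma, ranked 1163 and 1366 in the joint list and were not among the strongest 5000 of both replicates.

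Sequence was examined in 201-bp windows around the summits, with windows centred at -223 bp from the 5′ end of all 19973 protein-coding genes for comparison. Mean GC content was 43.0% ± 7.60 at members and 34.3% ± 6.53 in all promoters (SD over windows). It was 40.8% at divergent peaks and 43.6% outside promoters. A GC-rich word (ACGCGC or GCGCAC or CGCAAG on either strand) was present in 331 member windows (25.3%, interval 23% to 27.8%), against 37.2% of divergent windows, 15.3% of windows outside promoters and 10.9% of all promoters. These words can overlap each other and GCGCGC. They were chosen with earlier results of these data known, so the difference from the other windows is a description and no test. GC content was also higher in member windows than in promoters, and its part in the difference was not tested.

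Strong members had these words more often than weak ones, at a similar GC content over the window. The words were chosen with earlier results of these data known. Their shares by rank, distance and agreement, here and below, are therefore a description and no test. A GC-rich word was present in 49.1% of member windows at ranks 1 to 634, 33.6% at ranks 635 to 1000, 25.9% at ranks 1001 to 2500 and 17.5% at ranks 2501 to 5000. Mean GC content over the same groups was 43.7%, 45.6%, 43.4% and 42.1%. Each word alone was more frequent in the IDR list than below it. CGCAAG was in 25.2% of windows in the IDR list, 6.10% below it and 3.48% of all promoters. ACGCGC was in 26.4%, 10.3% and 4.59% of these windows, and GCGCAC in 20.8%, 9.06% and 4.19%.

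The words were close to the summit in the strong members. In the IDR list, 38.4% of members had a GC-rich word within 50 bp of the summit, against 14.5% of members below it. Among those with a word within 300 bp, the median distance was 25.5 bp in the IDR list and 81.0 bp below it. GC content in bins of 20 bp peaked at 52.7% just upstream of the summit in the IDR list and was 35.7% at the outermost upstream bin. Below the IDR list it peaked at 45.6%. Averaged over windows, the strong members thus showed a narrow GC-rich core in AT-rich flanks, and the weaker members a broad, shallow one. Such averages do not give the shape at single members. Replicate summits also lay farther apart at ranks 2501 to 5000 (median 56.0 bp) than in the IDR list (29.0 bp). The part of this in the average was not tested. On both strands the words were about equally frequent, with 53.2% of ACGCGC, 48.7% of GCGCAC and 45% of CGCAAG occurrences on the gene's strand.

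**Figure D4:**
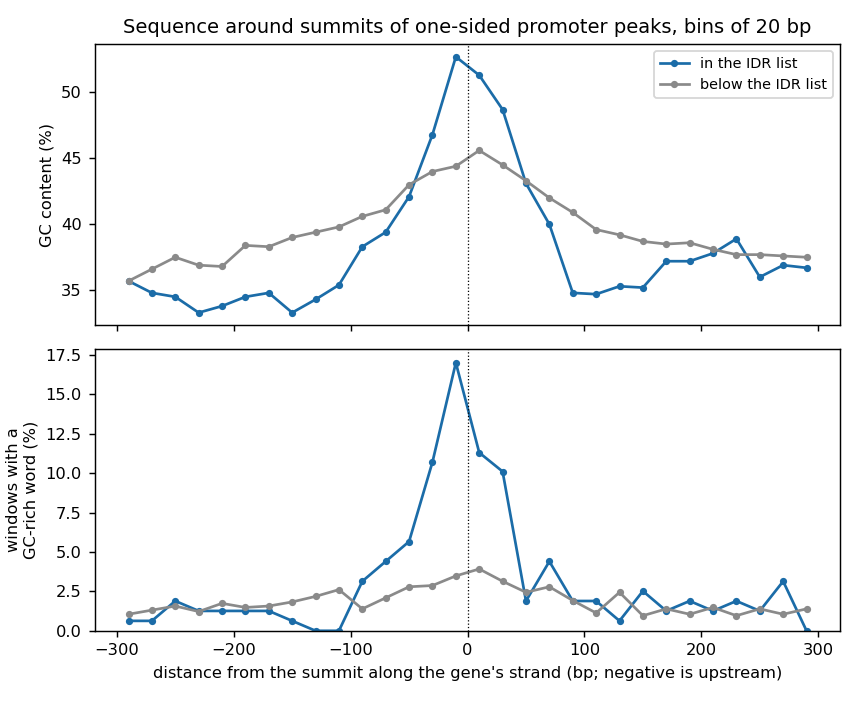
Mean GC content (upper panel, percent) and share of windows with a GC-rich word (lower panel, percent) in bins of 20 bp along the gene's strand, from 300 bp upstream to 300 bp downstream of the summit. Blue is the 159 members in the IDR list and grey the 1148 below it; the blue lines peak at 52.7% and 17% in the bin just upstream of the summit.

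Members with and without a GC-rich word also differed in their agreement between replicates. Of the 331 with a word, 47.4% were among the strongest 5000 of both replicates and 23.6% in the IDR list, against 24.8% and 8.30% of the 976 without. The share within 500 bp upstream was 61.3% with a word and 44.5% without. These measures are not independent of signal, since strong members more often had a word, lay upstream and were found in both replicates.

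The word TACGTA was rare, while its core ACGT alone was not counted. TACGTA was in 19 member windows (1.45%), 2 of them in the IDR list, against 1.98% of all promoters. C46F11.4, which encodes a predicted RNA helicase, was the strongest member with it, with signals of 117 and 177 in replicates 1 and 2. No match in a window says only that these letters were not in that window.

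Other words also differed in share between the members and all promoters, in either direction. Of all 2080 six-base words, counted with their reverse complement, GAGAGA had the largest difference, present in 24.9% of member windows against 13.7% of all promoters. The 10 words of largest difference also held other pyrimidine-rich words, such as CTCCTC (16.6% against 7.27%) and CGTCTC (15.6% against 6.79%), and CACACA with a CA repeat (18.7% against 10.3%). GC-rich words were among them as well, namely CGCGCA (12.9% against 4.50%) and CGCCGC (11.4% against 3.21%). GAGAGA was about as frequent in the IDR list (26.4%) as below it (24.7%) and outside promoters (22.8%), so it did not follow signal as the GC-rich words did. The Sp1-type word CCGCCC was in 10.2% of members and 4.42% of promoters. Words of AT-rich promoters were less frequent in members: TTTTTT in 52.3% against 68.8%, TATAAA in 12.9% against 24.5% and the GATA factor word GATAAG in 4.51% against 9.41%.

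B box words remained in some members although summits near annotated tRNA and snoRNA genes had been set aside. GTTCGANNC or GTTCAANNC was in 55 member windows (4.21%), against 3.77% of all promoters and 78.6% of peaks at tRNA or snoRNA genes. The share over all members was thus near that of promoters at large. In the IDR list it was 12 of 159 (7.55%), against 9 of 136 peaks outside promoters (6.62%) and 2 of 101 divergent peaks (1.98%). Of the 12 members, 5 were among the 25 strongest, at T13C5.6, tba-7, dhs-8, sms-3 and vig-1. The summits at T13C5.6, tba-7 and dhs-8 lay within 200 bp of an annotated ncRNA gene as well. The word GTTCAANNC was added after the windows had been seen.

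By gene group, shares of targets were read against the 6.44% of all protein-coding genes. The lists were built from gene symbols, and a share near that value says nothing of the list. Of the 83 genes of cytosolic ribosomal proteins, which form the ribosome with its RNA, 15 were targets (18.1%, interval 10.5% to 28.0%), and 6 of them through a peak in the IDR list. The replicates' own lists gave 13 targets each. Over all protein-coding genes, 0.821% were targets through a peak in the IDR list, and the replicates' own lists gave 6.31% in replicate 1 and 6.41% in replicate 2. Besides rpl-3 and rpl-35, the strongest was rps-28 of the small subunit, with signals of 56.8 and 131 in replicates 1 and 2, at ranks 302 and 140. Of the same 83 genes, 21 (25.3%) were at divergent peaks, against 3.46% of all protein-coding genes. Mitochondrial ribosomal proteins had 5 targets of 70 (7.14%), close to the background, with none in the IDR list. The replicates alone gave 8 (11.4%) and 7 (10.0%). At divergent peaks there were 12 of these 70 genes (17.1%), so the share close to the background was that of one-sided peaks in the joint list.

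Of 71 genes of oxidative phosphorylation, the chain of mitochondrial complexes that makes ATP, 11 were targets (15.5%, interval 8.00% to 26.0%), 7 of them in the IDR list (9.86% of the list, against 0.821% of all genes), and all 11 peaks were upstream. The replicates gave 10 targets each on their own. The peak at cox-5B, a subunit of cytochrome c oxidase, was at -30 bp from the gene, with signals of 73.2 and 85.3. The peak at cox-5A, another subunit, had 48.0 and 72.3, and that at cyc-1, which encodes cytochrome c1, had 45 and 69.6. These pairs of values lay at ranks from 191 to 516 in the replicates. A GC-rich word was in the window of 7 of the 11 targets, against 334 of all 1286 target genes (26.0%). Stronger members had such words more often, in 49.1% of windows at joint ranks 1 to 634. This small list was rich in strong peaks, and the comparison was not matched for strength. Mitochondrial import had 3 targets of 17 (17.6%), with an interval from 3.80% to 43.4% that held the background share. Among them were ddp-1 and tomm-20, an outer membrane import receptor, with signals of 28.5 and 84.4 and ranks of 2744 and 308.

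Body wall muscle markers had 8 targets of 29 (27.6%, interval 12.7% to 47.2%), the largest share of the lists with at least 10 genes, but none was in the IDR list. The replicates alone gave 7 and 6. The strongest was at the actin gene act-4, with a summit 4 bp downstream of the 5′ end, signals of 41.2 and 61.2 and ranks of 652 and 570. The peak upstream of pat-4, the integrin-linked kinase of muscle attachments, had 27.9 and 44. A peak 498 bp into unc-22, which encodes the giant muscle protein twitchin, had 35.4 and 36 and lay near 2 annotated ncRNA genes. It was also in the window of another gene with a closer 5′ end. Over the targets of each list, the median joint rank of the best peak was 485 for oxidative phosphorylation, 1374 for cytosolic ribosomal proteins, 2292 for body wall muscle and 2342 for all target genes. The muscle list was not restricted to embryonic genes, and binding in muscle cells themselves was not measured.

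Lists of chaperones and heat shock genes (10 of 69, 14.5%) and of chromatin regulators (14 of 102, 13.7%) had intervals with lower bounds of 7.17% and 7.71%. Replicates 1 and 2 alone gave 9 and 8 chaperone targets. They gave 9 (8.82%) and 14 (13.7%) chromatin regulators, so that share was nearer the background in replicate 1. The strongest chaperone target was hsp-1, a constitutive Hsp70, with signals of 79.4 and 80.6 at ranks 158 and 332. Among chromatin regulators the strongest were swsn-3, a SWI/SNF subunit, with 70.9 and 113, and cbp-1, a histone acetyltransferase, with 47.4 and 129. The summit of the swsn-3 peak lay in an intron of cox-6B. Among genes of RNA polymerases and general factors, 5 of 51 were targets (9.80%, interval 3.26% to 21.4%). The strongest was rpb-11, a subunit of RNA polymerase II, with 43.9 and 117. The bZIP factors had 4 targets of 27 (14.8%, interval 4.19% to 33.7%). Both intervals held the background share. The 3 bZIP targets of highest joint signal, cebp-1, cebp-2 and atf-6, were in the IDR list, which holds the strongest joint peaks. They were 11.1% of the bZIP genes, against 0.821% of all protein-coding genes. The peak at cebp-2 ranked 5266 in replicate 1 and 369 in replicate 2.

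Chemoreceptor genes, a large family expressed in sensory neurons, had 14 targets of 1310 (1.07%, interval 0.585% to 1.79%), the lowest share, and 13 and 20 in replicates 1 and 2 alone. The exception in the IDR list was srw-85, with a summit 382 bp into the gene and signals of 50 and 61.3. C-type lectins had 7 of 240 (2.92%), but 12 (5.00%) in replicate 1 alone and 7 in replicate 2 alone. Nuclear hormone receptors (14 of 274, 5.11%), cuticle collagens (8 of 174, 4.60%), intestine markers (2 of 71) and germline markers (3 of 70) had intervals that held the background share. The same held for cell cycle genes (6 of 65), vesicle traffic (9 of 88), splicing factors (4 of 56), histones (4 of 83), homeobox factors (7 of 92) and neuron markers (4 of 33). Several of these counts differed between the replicates' own lists. Cuticle collagens had 17 targets (9.77%) in replicate 1 and 7 (4.02%) in replicate 2, on either side of the background share. Cell cycle genes had 7 (10.8%) and 12 (18.5%), nuclear hormone receptors 19 and 12, and vesicle traffic 6 and 10. Homeobox factors had 3 and 6, histones 2 and 4, neuron markers 5 and 2, germline markers 5 and 3, intestine markers 1 and 3, and splicing factors 5 and 6. In all, 197 targets were on a list out of 3405 listed genes.

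Of the 3 genes with a gmeb symbol in the list, only gmeb-1 was a target. Its peak was at -572 bp, at joint rank 1240, with signals of 34.6 and 39.7 in replicates 1 and 2 at ranks 1197 and 2525. Neither gmeb-2, the gene carried as the tagged transgene, nor unc-119 had a member.

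**Figure D5:**
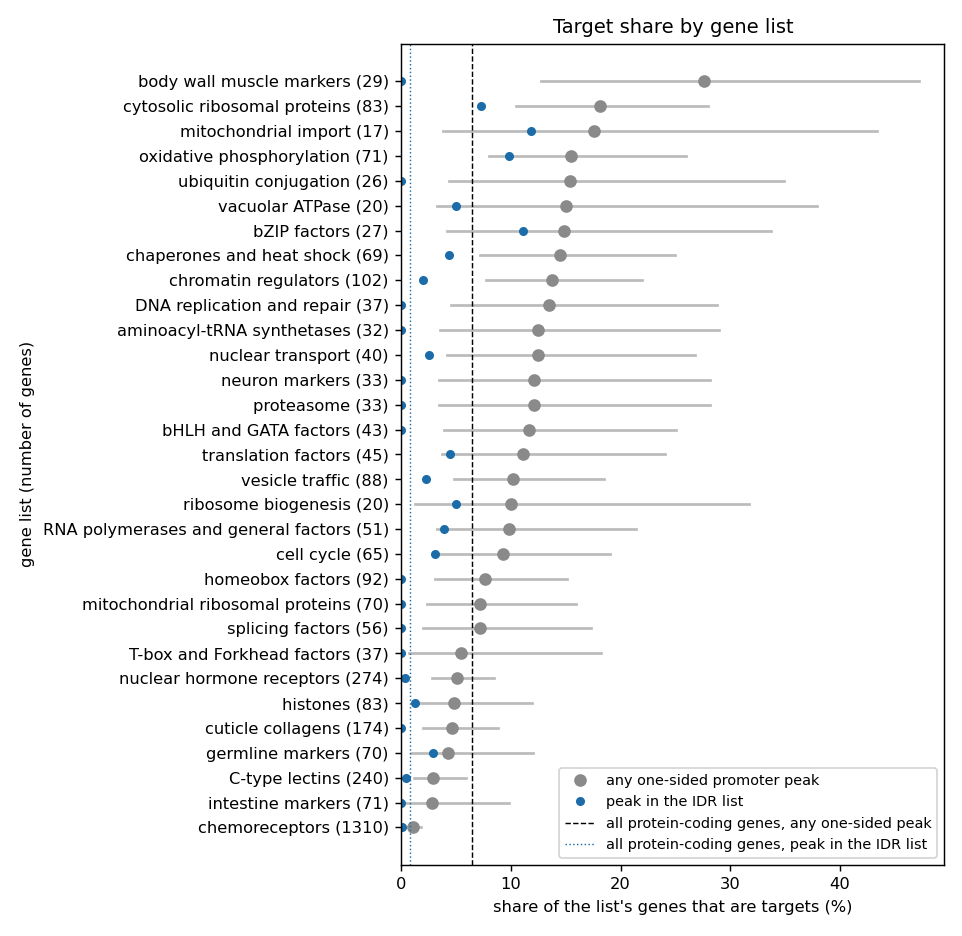
Share of each list's genes that were targets (horizontal axis, percent), for the lists with at least 10 genes; the number of genes is in brackets. Grey points with 95% exact intervals count any one-sided promoter peak and blue points those in the IDR list; the dashed line is the 6.44% and the dotted line the 0.821% of all protein-coding genes.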

How the data were processed

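Binding was measured by ChIP-seq in 2 biological replicates of 1 group, so no condition was compared. The authors deposited peak lists on both builds, of which ce11 was used. According to the listing beside the files, relaxed lists were called against a control for each replicate and for the pair, and an IDR list was then derived. The signal per peak is the authors' deposited value, and it served to rank peaks inside 1 list. Which aligner, caller, filters and IDR threshold made them is not given in the sources. Lists on ce10 were not analysed here.

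From there, summits of the ce11 lists were set against genes of the Ensembl 115 annotation of WBcel235 with Python 3.11.15, NumPy 2.4.6 and SciPy 1.17.1. Peaks were matched between lists where summits lay within 200 bp, taking the strongest. Words were counted on both strands. Shares carry 95% exact Clopper-Pearson intervals. Steps were tested on simulated data with known answers. No hypothesis test was applied, because the same signal chose the members.

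The text names the 25 strongest members, up to 3 strongest targets per gene list, up to 5 members near other RNA genes, 3 on each side of rank 5000, the gmeb genes and unc-119, the 17 listed words and the 10 six-base words of largest difference. A gene or word in that rule may be left unnamed, and several words were. Members, lists and words were chosen with earlier results of these data known. Alternatives covered the number of peaks kept, the promoter window, transcript ends, the distance to RNA genes, matching and each replicate alone.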

Additional observations from a re-analysis of the deposited data

How the results depend on the processing

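The count of members depended on the list. It was 674 from the strongest 2500 joint peaks and 159 from the IDR list, with 679 and 164 target genes, 126 and 40 of them on a gene list. With the same settings, the share found in both replicates was 55% and 95.0%, the share in the IDR list 23.6% and 100%, and the share with a GC-rich word 32.6% and 49.1%; mean GC content was 43.9% and 43.7%, and the median position in the IDR list -238 bp. A window of 500 bp to either side gave 33.1% in both replicates, a median of -117 bp and 42.5% GC. With the 5′ ends of all transcripts the median was -209 bp and GC 43.4%. Matching summits within 100 bp gave 24.8% in both replicates, and the full replicate lists 87.1%. With 50 bp to either side of the summit, GC was 44.9% and 16.9% of windows had a GC-rich word. Dropping summits within 500 bp of tRNA and snoRNA genes left 1298 members. Each replicate alone gave 1289 to 1293 members, 1260 to 1281 targets, 194 to 198 of them on a list, medians of -202 to -197 bp, 42% to 42.4% GC and 22.2% to 24.5% of windows with a GC-rich word. Shares found in both replicates or in the IDR list have no such value, since they need both replicates. GC content was judged against the spread of the replicates' means, 0.0321 percentage points, so small shifts counted as moved.

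No paired analysis was possible because the samples form 1 group. Limits: the depth is unknown, a summit is assigned by distance alone, other factors and an untagged strain were not used here, and 16 members lie where under 50% of the sequence is unique.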
